A study of Mus musculus with 24 samples.

Results

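Day 7 X-GFP–medium cells treated with IFNγ were compared with X-GFP–medium control cells, 2 RNA-seq libraries each. Of 37315 genes in the deposited table, the 15595 with a mean above 10 normalized counts over these 4 libraries were taken; 13907 of them are protein coding and 575 lie on the X chromosome. A normalized count is a read count divided by a size factor for the depth of its library. The rule used the mean alone and not the difference between the arms. A gene with a mean under 10 in either arm therefore passed only through the other arm. Tgtp2, Ciita, Sox17 and Il1a below are among such genes, and their differences carry that limit. At its edge, Gm20036, Igll1 and Tarm1 lay just inside with means near 10.01, 10.02 and 10.04, and Amh and Lrrc23 just outside with 9.97 and 9.97. Of the remaining genes, 13028 had no read in the 4 libraries and 8692 had reads but a lower mean.

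All cells came from PaX, a female hybrid ESC line of 129S1/SvImJ and CAST/EiJ background with 1 Mus musculus X chromosome (X mus) and 1 Mus castaneus X (X cas). The Tsix gene of X mus is truncated, so that this X is the one preferentially silenced on differentiation. GFP inserted into the Hprt gene of X mus reports its activity, and a red reporter driven by the Nanog promoter was also carried by the line. NPCs (neural precursor cells) made from these ESCs have silenced X mus and were reprogrammed by doxycycline, which turned on an inserted cassette of c-Myc, Klf4, Oct4 and Sox2 in both arms. The cells grew on irradiated male mouse embryonic fibroblasts in medium with serum, LIF and ascorbic acid. The treated arm received 10 ng/ml mouse IFNγ from day 0 to day 5, and both arms were collected on day 7, after IFNγ had been withdrawn. Cells carrying SSEA1, a surface sugar of reprogramming cells, were enriched and sorted by GFP into negative, medium and high fractions. The 8 day 7 libraries of the negative and high fractions, and 2 libraries each of ESCs and NPCs, served for the comparisons named below. Both arms derive from 1 line. The study's methods call the RNA-seq replicates independent, but nothing in the labels ties a replicate number to a separate culture, and the p-values measure the spread between these libraries.

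IFNγ is a cytokine that binds the receptor chains IFNGR1 and IFNGR2 and acts through the kinases JAK1 and JAK2. Its response genes often carry a DNA motif named GAS (TTCNNNGAA), and the factors of the IRF family, first among them IRF1, bind the motif named ISRE (here GAAA, any 2 bases, then GAAA, on either strand). Their best known targets are the immunoproteasome, the peptide transporter and MHC class I genes, and GTPases that guard the cell against pathogens. Reprogramming resets somatic cells to pluripotency, and in female cells the silenced X chromosome, coated by the noncoding RNA Xist, becomes active again late in the process. Cells with intermediate X-GFP were therefore sorted as cells in the course of that step.

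The 250 bases before the start of 3 genes of the IFNγ response list are shown, since these genes rose most among the list members with a RefSeq promoter. Psmb9 encodes a catalytic subunit of the immunoproteasome, and Igtp and Irgm2 encode GTPases of the IRG family. The sequences are RefSeq's on GRCm38.p6, each on the strand of its gene. The windows lie at chr17:34187331-34187580 on the minus strand for Psmb9, at chr11:58199306-58199555 on the plus strand for Igtp and at chr11:58214727-58214976 on the plus strand for Irgm2. Capitals mark matches to the GAS or ISRE letters on either strand.
Psmb9: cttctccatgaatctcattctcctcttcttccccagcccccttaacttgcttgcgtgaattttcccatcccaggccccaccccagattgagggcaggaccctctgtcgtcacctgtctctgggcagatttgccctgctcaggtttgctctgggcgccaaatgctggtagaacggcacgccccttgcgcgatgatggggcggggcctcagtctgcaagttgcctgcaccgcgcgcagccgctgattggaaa
Igtp: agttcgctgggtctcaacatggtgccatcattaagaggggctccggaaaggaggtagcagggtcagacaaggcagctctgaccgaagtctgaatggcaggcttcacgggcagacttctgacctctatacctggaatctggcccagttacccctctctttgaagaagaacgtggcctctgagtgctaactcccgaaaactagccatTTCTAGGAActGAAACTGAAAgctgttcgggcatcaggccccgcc
Irgm2: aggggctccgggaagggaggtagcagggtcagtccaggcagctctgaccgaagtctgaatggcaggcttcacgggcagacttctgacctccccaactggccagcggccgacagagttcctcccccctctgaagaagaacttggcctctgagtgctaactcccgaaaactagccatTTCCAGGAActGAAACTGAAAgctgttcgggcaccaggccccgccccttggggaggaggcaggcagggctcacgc
The Igtp and Irgm2 windows each hold 1 GAS and 1 ISRE match, and the first bases of the 2 matches lie 11 bases apart in both. The first base of the GAS match lies 45 bases before the start of Igtp and 75 bases before that of Irgm2. No match was found in the Psmb9 window, which shares 225 bases with the window of Tap1 on the opposite strand. The starts of Psmb9 and Tap1 lie 226 bases apart. Over all 32851 promoter windows of this length, 7.02% held a GAS match and 2.98% an ISRE match. Of 31 IFNγ response genes with a window, 7 held GAS and 11 held ISRE. A match is a match of letters and was not tested for binding.

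The 4 libraries held 26540528 to 29875843 reads on genes. The 2 control libraries differed from each other by a chi-square of 3.16 per degree of freedom and the 2 IFNγ libraries by 9.80, so that both pairs are separate libraries and the IFNγ pair spreads more. The summed level of 5 pluripotency markers was 42686 and 44020 normalized counts in the control and 71244 and 69033 in the IFNγ libraries, and that of 5 neural precursor markers was 3307.9 and 3584 in the control and 2137 and 2423 in the IFNγ libraries against a mean of 43386 in NPCs. Of the 5, Fabp7 read 0 to 2.96 against 13240 in NPCs, while Slc1a3 read 328 and 352 in the control and 592 and 574 in the IFNγ libraries against 2394 in NPCs. Fut9, whose product makes the SSEA1 sugar used for enrichment, read 1247 and 1406 in the control and 1558 and 1488 in the IFNγ libraries. Of 14 feeder markers 9 were tested, of which 2 were higher and 5 lower. The summed level of 8 fibroblast genes was 5612 and 5042 in the control and 689.7 and 743.4 in the IFNγ libraries, and in the controls it came mainly from Dcn. Lum and Postn, other genes of that list, read 1.12 to 7.23 and 6.20 to 14.8 normalized counts, with means of 1494.5 and 2121 in NPCs, and the 4 Y-linked genes of the male feeders summed to 1.03 to 12.5. Of 9 immune markers only Cd68 and Csf1r passed the mean of 10, and both fell, while Ptprc read at most 10.9 normalized counts and Adgre1 was at 0. The part of feeder or immune cells in the results was not tested. In sorted bulk samples, fewer cells of a type and less RNA per cell cannot be told apart.

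IFNγ-treated X-GFP–medium cells differed from control cells at most genes. limma, fitted to log2(normalized count + 1) with Benjamini-Hochberg adjustment over the 15595 genes, called 62.9% of them at an adjusted p under 0.1, 33.3% higher and 29.6% lower. In the same test 31.1% were higher and 30.8% lower in negative cells, and 18.1% and 20.4% in high cells. With a further requirement of a log2 change of at least 1, 6.18% were higher and 9.45% lower. The shares of 33.3% and 29.6% are the background for every count of listed genes. The median log2 change was 0.53 among genes called higher and −0.63 among those called lower. The libraries of the 2 arms did not overlap for 79.2% of genes, and for a single gene an exact permutation test of 2 against 2 libraries cannot give a p below 0.333. All fold changes are log2(IFNγ) minus log2(control) on the scale with 1 added, ± the standard error of limma, with n = 2 per arm.

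The largest increase among genes with a mean of at least 100 was that of Psmb9, which read 17.8 and 19.6 normalized counts in the control libraries and 137 and 165 in the IFNγ libraries (2.94 ± 0.23, adjusted p = 4.6e-06). Both IFNγ libraries lay far above both controls. The other 9 largest increases belonged to Tat, Klb, Pdgfra, Rhox5, Zfp936, Nlrp4f, Pla2g1b, Themis and Pros1, with log2 changes of 1.98 to 2.47. Klb, the co-receptor of endocrine FGFs, read 23.7 and 29.9 normalized counts in the control libraries and 146 and 137 in the IFNγ libraries (2.36 ± 0.22, adjusted p = 1.4e-05). Rhox5, an X-linked homeobox gene of the early embryo, read 623 and 601 normalized counts in the control libraries and 2826 and 2510.4 in the IFNγ libraries (2.12 ± 0.08, adjusted p = 2.9e-07). Pdgfra, the PDGF receptor that marks primitive endoderm, read 79.1 and 87.8 normalized counts in the control libraries and 413 and 445 in the IFNγ libraries (2.35 ± 0.14, adjusted p = 1.1e-06). In all of these the IFNγ libraries stood close together. That they lay above both controls follows from the rule, which took only genes whose libraries did not overlap between the arms.

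Larger still was the fall of Dcn, which encodes the matrix proteoglycan decorin. It read 5019.6 and 4472 normalized counts in the control libraries and 166 and 242 in the IFNγ libraries, a log2 change of −4.56 ± 0.15, adjusted p = 1.4e-07, and the arms were separated by more than an order of magnitude in every library. Dcn is also a marker of fibroblasts and lay at 1353 normalized counts in NPCs and 0.476 in ESCs. The next 9 falls, chosen by the same rule, were those of Vsig8, Sost, Dsg1b, Prss32, Il1rn, Shisa3, Ugt1a6a, Slc2a10 and Btc. Their log2 changes were −4.13 to −3.56. Il1rn, the natural antagonist of the interleukin-1 receptor, read 117 and 97.1 normalized counts in the control libraries and 3.36 and 13.6 in the IFNγ libraries (−3.75 ± 0.48, adjusted p = 0.00012). Btc, a ligand of EGFR, read 158 and 154 normalized counts in the control libraries and 6.72 and 22.0 in the IFNγ libraries (−3.56 ± 0.42, adjusted p = 7.2e-05). Sost, an antagonist of WNT signaling, read 119 and 109 normalized counts in the control libraries and 1.12 and 26.1 in the IFNγ libraries, and its call was lost with DESeq2 (log2 change −3.09). For all 10 genes the control libraries were close to each other and IFNγ library 1 was the lowest of the 4. Where that spread was widest, 1 treated library moved the fold change: it was −2.08 for Sost, −2.88 for Il1rn, −2.77 for Btc and −2.77 for Dsg1b without IFNγ library 1, and −5.76, −4.62, −4.35 and −4.90 in the same order without IFNγ library 2.

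**Figure D1:**
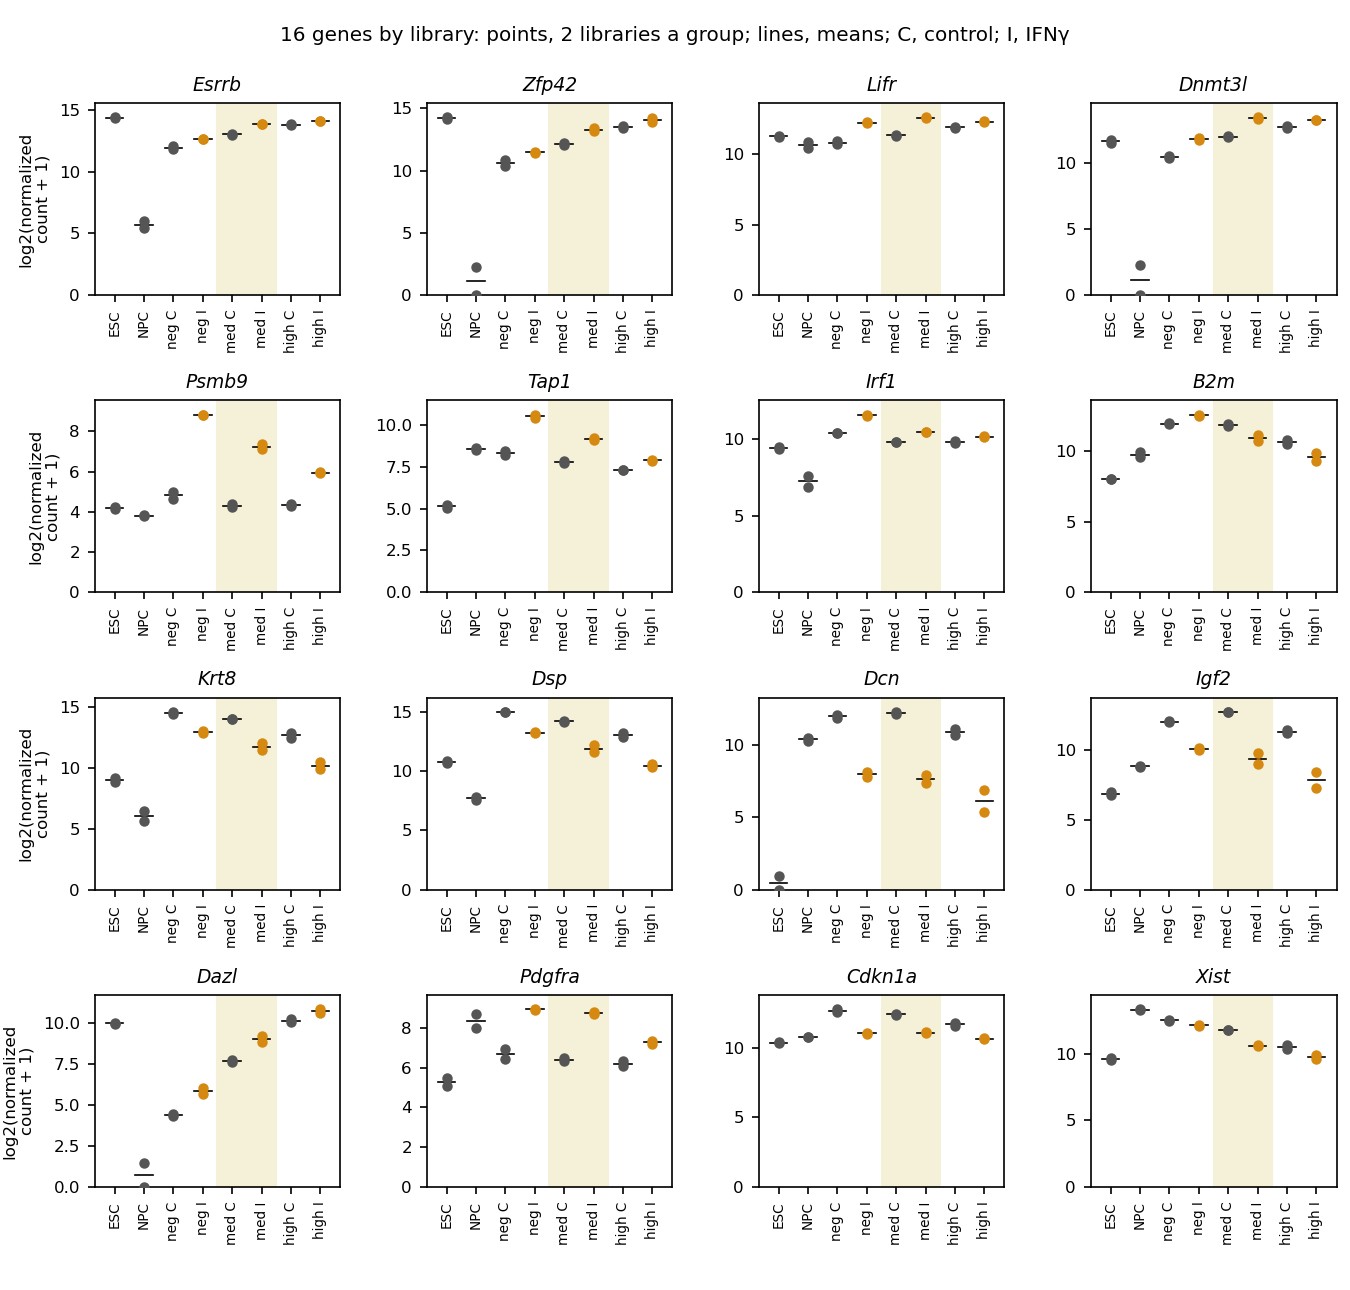
Each panel plots 1 gene as log2(normalized count + 1) in the libraries of ESCs, NPCs and the day 7 populations, with points for the 2 libraries of a group, a line for their mean, orange for IFNγ and a shaded band for X-GFP–medium cells. Psmb9 and Tap1 rise with IFNγ in all 3 day 7 populations, whereas B2m falls in medium cells and Krt8, Dsp, Dcn and Igf2 lie lower with IFNγ.

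Genes of the IFNγ response were still higher in part of the list on day 7. Of 46 listed genes, 40 were tested, 1 was not analysed here and 5 (Cxcl9, Ifit1, Ifit3, Iigp1 and Isg15) had means of at most 10. Of those tested, 21 were higher, 7 lower and 12 not called, with a median log2 change of 0.49 beside 0.04 for all genes. Among signal transducers, Irf1 read 900.4 and 902 normalized counts in the control libraries and 1413 and 1459 in the IFNγ libraries (0.67 ± 0.07, adjusted p = 3.2e-05). Both IFNγ libraries exceeded both controls. The receptor chains moved in opposite directions. Ifngr1, the ligand-binding chain, read 538 and 529 normalized counts in the control libraries and 243 and 276 in the IFNγ libraries (−1.04 ± 0.11, adjusted p = 3.2e-05). Ifngr2, the signaling chain, read 111 and 95.0 normalized counts in the control libraries and 175 and 148 in the IFNγ libraries (0.65 ± 0.17, adjusted p = 0.0088). Neither pair of arms overlapped.

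Among the GTPases, 5 of 6 tested genes were higher and Gbp7 was lower. Igtp read 50.4 and 52.7 normalized counts in the control libraries and 165 and 164 in the IFNγ libraries (1.65 ± 0.18, adjusted p = 3.5e-05). Irgm2 read 45.5 and 56.8 normalized counts in the control libraries and 132 and 193 in the IFNγ libraries (1.63 ± 0.23, adjusted p = 0.00019). The treated libraries of Irgm2 spread more than those of Igtp, but less than their distance from the controls. Tgtp2, of the same family and chosen here after its values were seen, had at most 2 reads in each control library and 43.7 and 61.7 normalized counts in the IFNγ libraries, at least 17-fold higher when the controls are set to a floor of 3 reads per library. Tgtp2 has a near-identical neighbour, so its reads may be shared and its level is uncertain.

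The antigen presentation genes were divided. Of 14 tested, 8 were higher, 2 lower and 4 not called. Tap1, a chain of the peptide transporter that shares its promoter region with Psmb9, read 212 and 231 normalized counts in the control libraries and 551 and 603 in the IFNγ libraries (1.38 ± 0.11, adjusted p = 5.6e-06). Psmb8, another immunoproteasome subunit, read 134 and 115 normalized counts in the control libraries and 226 and 325 in the IFNγ libraries (1.12 ± 0.18, adjusted p = 0.00059). The control libraries were the lower ones for both. The remaining inducible proteasome subunit gene, Psmb10, read 472 and 483 normalized counts in the control libraries and 365 and 509 in the IFNγ libraries, and its libraries overlapped (log2 change −0.15 ± 0.14, adjusted p = 0.4). The heavy chain genes H2-K1 and H2-D1 rose by 0.34 and 0.42 on the log2 scale, with reads that similar class I genes may share, but B2m, the light chain that all MHC class I molecules need, fell. It read 3834 and 3538 normalized counts in the control libraries and 1702 and 2289 in the IFNγ libraries (−0.90 ± 0.12, adjusted p = 0.00012), and both treated libraries lay below both controls. Ciita, the master activator of MHC class II, was higher, with 5.93 and 9.29 normalized counts in the control libraries and 34.7 and 24.05 in the IFNγ libraries (1.82 ± 0.39, adjusted p = 0.003), while the class II gene H2-Aa and its chaperone gene Cd74 were not called. Without IFNγ library 2 the list had 11 genes lower and without control library 1 it had 4, in place of 7.

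The response was smaller in X-GFP–medium than in X-GFP–negative cells. The median log2 change of the list was 1.18 in negative, 0.49 in medium and 0.20 in high cells, and each population was set against its own controls. In the interaction test of limma over the 8 libraries of medium and negative cells, 25 of the 40 genes had a smaller effect in medium cells and 0 a larger one, where 8.36% and 7.31% of all genes tested did. Against high cells, 6 had a larger effect in medium cells and 1 a smaller one, beside 8.06% and 4.71% of all genes. The Psmb9 effect was 3.98 in negative, 2.94 in medium and 1.59 in high cells on the log2 scale, and differed from both (medium minus negative −1.04 ± 0.27, adjusted p = 0.039; medium minus high 1.35 ± 0.32, adjusted p = 0.032). B2m rose by 0.59 in negative cells and fell in medium cells, a difference of −1.49 ± 0.16, adjusted p = 0.00086. Gbp7 behaved in the same manner, at 1.19 in negative and −0.43 in medium cells (−1.62 ± 0.16, adjusted p = 0.00071). Nlrc5, the MHC class I counterpart of Ciita, changed by 1.66 in negative cells and was not called in medium cells (0.28 ± 0.14, adjusted p = 0.12; difference −1.39 ± 0.20, adjusted p = 0.0034). With the listed genes that passed the filter only through negative cells the number smaller was 26, and it was 19 to 29 over the other scalings, filters and tools and with 1 library left out. The count of 6 larger effects than in high cells was less stable, at 1 with DESeq2, 2 without the filter, 3 and 1 without high control library 1 or 2, and 1 and 2 without medium control library 1 or 2.

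**Figure D2:**
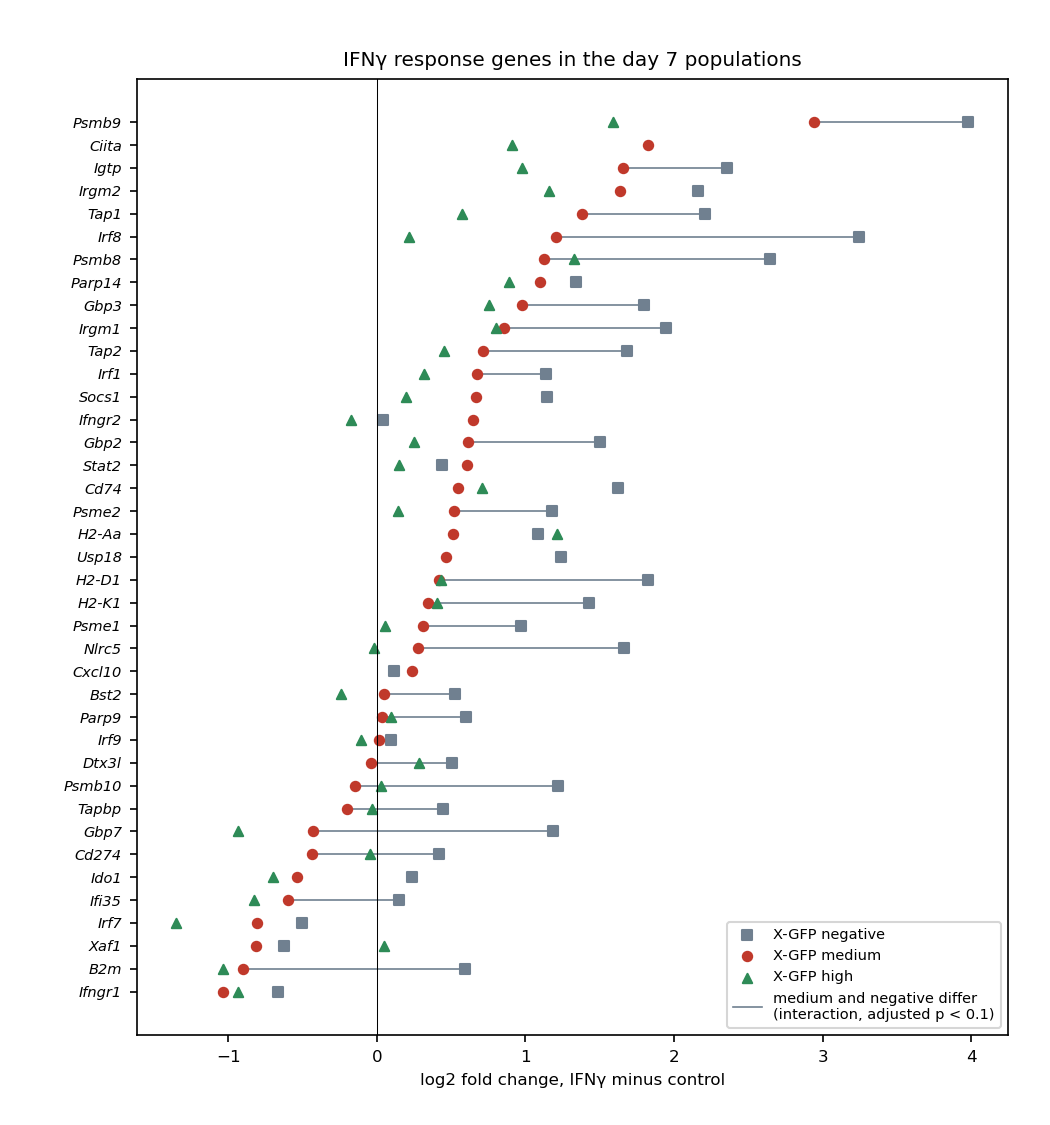
Each row is 1 of 39 tested genes of the IFNγ response list and the x axis its log2 fold change of IFNγ against control, with squares for X-GFP–negative, circles for X-GFP–medium and triangles for X-GFP–high cells. Grey lines join medium and negative values for the 24 genes shown whose effects differed in the interaction test, and in all 24 the medium value lies to the left.

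LIF, the cytokine that maintains mouse naive pluripotency, signals through LIFR and IL6ST (gp130) to the same kinases and to STAT3. Of 12 listed genes, 7 were higher and 4 lower. The receptor chain genes Lifr and Il6st were among the higher, and the kinases that both pathways share were among the lower. Jak1 read 2830.5 and 2876 normalized counts in the control libraries and 1907 and 2020 in the IFNγ libraries (−0.54 ± 0.06, adjusted p = 6.3e-05). Jak2 read 1728 and 1615 normalized counts in the control libraries and 1136 and 986 in the IFNγ libraries (−0.66 ± 0.08, adjusted p = 0.00011), with all treated libraries below all controls. Of the STAT3 targets, Socs3, the feedback inhibitor of the LIF receptor, read 5329 and 5164 normalized counts in the control libraries and 6601 and 6432 in the IFNγ libraries (0.31 ± 0.06, adjusted p = 0.001), and Bcl3 rose by 0.51 ± 0.12 on the log2 scale. Junb fell, from 3200.1 and 2943 to 1611 and 1606 normalized counts (−0.93 ± 0.07, adjusted p = 2.8e-06). In negative cells its log2 change was −0.80, and the difference from medium cells was −0.13 ± 0.13, adjusted p = 0.57. The effect was larger in medium than in high cells for Lifr by 0.85 ± 0.08, adjusted p = 0.0027 and for Il6st by 0.55 ± 0.08, adjusted p = 0.007. Beside 8.06% of all genes tested, the effect was larger in medium than in high cells for 5 genes of the list. This number was 1 with all 24 libraries in 1 fit, 3 with edgeR, 2 without the filter, 3 without high IFNγ library 2 or high control library 1, and 2 without high control library 2, medium IFNγ library 1 or either medium control library. Against negative cells the same differences did not pass the test, at −0.16 ± 0.11, adjusted p = 0.43 for Lifr and 0.05 ± 0.07, adjusted p = 0.7 for Il6st.

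Naive pluripotency genes rose together. Of 24 genes, 23 were higher, beside 33.3% of all genes, 0 were lower and 1, the RNA-binding protein gene Lin28a, was not called (4040.2 and 4091 and then 4063 and 4133 normalized counts). With all 24 libraries in 1 fit 19 were higher, and 22 or 23 in the other alternatives. All 13 transcription factors of the list were higher. Nr0b1, an X-linked orphan receptor, changed most and read 379.5 and 402 normalized counts in the control libraries and 1017 and 1279 in the IFNγ libraries (1.54 ± 0.11, adjusted p = 3.2e-06). Tbx3, a T-box factor downstream of LIF, read 1510.1 and 1436 normalized counts in the control libraries and 3697 and 3561 in the IFNγ libraries (1.30 ± 0.06, adjusted p = 5.5e-07). Klf2 read 1661 and 1614 normalized counts in the control libraries and 3213 and 3049 in the IFNγ libraries (0.93 ± 0.06, adjusted p = 2.2e-06). For these 3 genes both treated libraries lay above both controls. In comparison with ESCs, Tbx3 in the treated cells was above the ESC mean of 1919, whereas Klf2 and Nr0b1 remained below the ESC means of 4609.9 and 2862 normalized counts. Tfap2c, a factor of the naive and germ cell programs, read 1066 and 1166 normalized counts in the control libraries and 1692 and 1732 in the IFNγ libraries (0.62 ± 0.07, adjusted p = 6.8e-05).

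The rise of the naive genes was larger in medium than in high cells for 17 of the 24 genes and smaller for 0, beside 8.06% and 4.71% of all genes. It was larger than in negative cells for 7 and smaller for 1 (Lin28a), beside 7.31% and 8.36% of all genes. The median log2 change of the naive genes was 0.77 in medium, 0.27 in high and 0.55 in negative cells. Klf2 changed by 0.93 in medium and by 0.11 in high cells on the log2 scale (difference 0.82 ± 0.09, adjusted p = 0.0027). Dppa3, a maternal factor that is also a germ cell marker, rose by 0.37 ± 0.07 in medium cells and had a log2 change of −0.52 in high cells (difference 0.89 ± 0.10, adjusted p = 0.0029). The Dppa3 call in medium cells was lost with all 24 libraries in 1 fit. Against negative cells the largest differences were those of Tbx3 (0.93 ± 0.12, adjusted p = 0.0017), Fgf4 (0.68 ± 0.11, adjusted p = 0.0054) and Tcl1 (0.71 ± 0.13, adjusted p = 0.0086). The count of 17 against high cells was 0 when all 24 libraries were fitted together, 10 without high control library 2 and 9 without medium control library 1. That of 7 against negative cells was 2 with all 24 libraries and 11 with the replicate number as a block, and with values rescaled to the same total 5 genes had a larger and 4 a smaller effect than in negative cells.

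The factors of the cassette are carried by both arms and their endogenous and inserted transcripts were not separated. Sox2 read 7327 and 8337 normalized counts in the control libraries and 12567 and 12775 in the IFNγ libraries (0.70 ± 0.07, adjusted p = 2.2e-05). Klf4 was higher by 0.15 ± 0.06 on the log2 scale (adjusted p = 0.048), and the number of cassette factors higher was 1 instead of 2 without either control library and with DESeq2, edgeR or all 24 libraries in 1 fit. Pou5f1, which encodes Oct4, read 22692 and 22808 normalized counts in the control libraries and 15847 and 17639 in the IFNγ libraries (−0.44 ± 0.07, adjusted p = 0.00031). Myc read 4937 and 5483 normalized counts in the control libraries and 2092 and 3079 in the IFNγ libraries (−1.03 ± 0.14, adjusted p = 0.00017). The treated libraries thus held more Sox2 and less Pou5f1 and Myc than any control library.

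Of 13 formative and primed pluripotency genes, 8 were higher and 3 lower, and 5 were higher when all 24 libraries were fitted together. The median log2 change of the list was 1.26 in negative, 0.60 in medium and 0.40 in high cells. Against negative cells the change in medium cells was more negative for 7 genes and more positive for 0, beside 8.36% and 7.31% of all genes. With other scalings, filters, tools or the replicate block these numbers were 4 to 9 and 0. Dnmt3b, a de novo DNA methyltransferase of the epiblast, read 1861 and 2085 normalized counts in the control libraries and 5547 and 6835 in the IFNγ libraries (1.64 ± 0.10, adjusted p = 1.0e-06). Brachyury (T), a factor of the primitive streak, read 43.5 and 35.1 normalized counts in the control libraries and 107 and 170.4 in the IFNγ libraries (1.77 ± 0.25, adjusted p = 0.00023). Lef1, a nuclear effector of WNT signaling, was among the 3 lower, with 1015 and 963 normalized counts in the control libraries and 185 and 219.6 in the IFNγ libraries (−2.29 ± 0.11, adjusted p = 5.4e-07). Its treated libraries were far below both controls, and its fall was larger in medium than in negative cells (−1.66 ± 0.15, adjusted p = 0.0005) and than in high cells (−0.88 ± 0.17, adjusted p = 0.016). Lefty1, an inhibitor of NODAL, rose by 1.32 on the log2 scale in negative cells and fell by 0.40 in medium cells, a difference of −1.72 ± 0.13, adjusted p = 0.00023.

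Of 12 listed genes that write or erase DNA methylation, 4 were higher, 3 lower and 5 not called, near the 33.3% higher and 29.6% lower of all genes. Dnmt3b, which rose, was counted with the formative genes above and is not in this list. The median log2 change of the list was 0.10, beside 0.04 for all genes. Dnmt3l, the cofactor of the de novo methyltransferases, read 4089 and 4317 normalized counts in the control libraries and 11486 and 10645 in the IFNγ libraries (1.40 ± 0.06, adjusted p = 3.8e-07), and its treated level exceeded the ESC mean of 3241. Tet1, which oxidizes 5-methylcytosine, read 6483 and 6749.8 normalized counts in the control libraries and 13297 and 15138 in the IFNγ libraries (1.10 ± 0.07, adjusted p = 1.5e-06). Uhrf1, which recruits the maintenance enzyme, read 5512 and 6139 normalized counts in the control libraries and 9449 and 10674 in the IFNγ libraries (0.79 ± 0.08, adjusted p = 1.8e-05). The arms were well apart for all 3 genes. Dnmt3a and Uhrf2 fell by 0.34 and 0.34 on the log2 scale, and Tet3 by 0.30, a call lost without control library 1. Without IFNγ library 1 the number lower was 5.

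Germline and meiosis genes, a set silenced by promoter DNA methylation in somatic cells, were higher almost throughout. Of 17 listed, 16 were tested, 15 were higher and 0 lower, with a median log2 change of 1.39. Hormad1, a protein of meiotic chromosome axes, read 82.0 and 78.5 normalized counts in the control libraries and 284 and 225 in the IFNγ libraries (1.64 ± 0.17, adjusted p = 2.6e-05). Dazl, an RNA-binding protein of germ cells, read 197 and 208 normalized counts in the control libraries and 578 and 452 in the IFNγ libraries (1.33 ± 0.13, adjusted p = 2.5e-05). Tex19.1, a transposon control gene, read 643 and 565 normalized counts in the control libraries and 1743 and 1538 in the IFNγ libraries (1.44 ± 0.09, adjusted p = 1.7e-06). No control library reached a treated library for these genes. Mael and Brdt rose by 1.76 ± 0.23 and 1.69 ± 0.27 on the log2 scale. The NPC means of Hormad1, Dazl and Tex19.1 were 0, 0.878 and 0.925 normalized counts, and the ESC means 1556, 983 and 2938. Beside 8.06% of all genes tested, the effect exceeded that in high cells for 5 genes of the list. Tex19.1 (0.66 ± 0.12, adjusted p = 0.013) and Dazl (0.76 ± 0.18, adjusted p = 0.031) were among them. That count was 0 with all 24 libraries in 1 fit, 3 without the filter and without high control library 1 or medium control library 1, and 8 with the replicate block.

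Genes of the primitive endoderm, the extraembryonic lineage next to the epiblast, were also higher in 9 of 14 cases, and 2 were lower. Sox17 read 11.9 and 6.20 normalized counts in the control libraries and 61.6 and 61.7 in the IFNγ libraries (2.70 ± 0.35, adjusted p = 0.00013). Gata6 read 87.0 and 79.5 normalized counts in the control libraries and 237 and 280.2 in the IFNγ libraries (1.62 ± 0.16, adjusted p = 2.0e-05). The treated libraries were the higher ones for both. Gata4, another factor of the lineage, read 334 and 314 normalized counts in the control libraries and 266 and 285 in the IFNγ libraries and was not called (adjusted p = 0.11), and Foxa2 fell from 106 and 129 to 32.5 and 80.5 normalized counts (−1.17 ± 0.35, adjusted p = 0.017). The Foxa2 change was −0.53 without IFNγ library 1 and −1.82 without IFNγ library 2. The median log2 change of the list was 1.11 in negative, 0.64 in medium and 0.35 in high cells. Against negative cells the change in medium cells was more negative for 3 genes and more positive for 0, beside 8.36% and 7.31% of all genes. With other scalings, filters, tools or the replicate block these numbers were 2 to 5 and 0. For Sox17 and Gata6 the effect was larger in medium than in high cells (1.89 ± 0.45, adjusted p = 0.034, and 1.36 ± 0.23, adjusted p = 0.0092). Beside 8.06% of all genes tested, that was so for 6 genes of the list. This number was 1 to 3 with DESeq2, without the filter, with all 24 libraries in 1 fit and without any 1 of the medium control or high control libraries. Of 6 tested trophectoderm genes, 0 were higher and 2 were lower, among them the keratin gene Krt7, which read 559 and 546 normalized counts in the control libraries and 228 and 230.0 in the IFNγ libraries (−1.27 ± 0.10, adjusted p = 6.1e-06). The other 4 were not called in the fit of all 4 libraries, a result that did not hold for each of them with either IFNγ library left out.

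**Figure D3:**
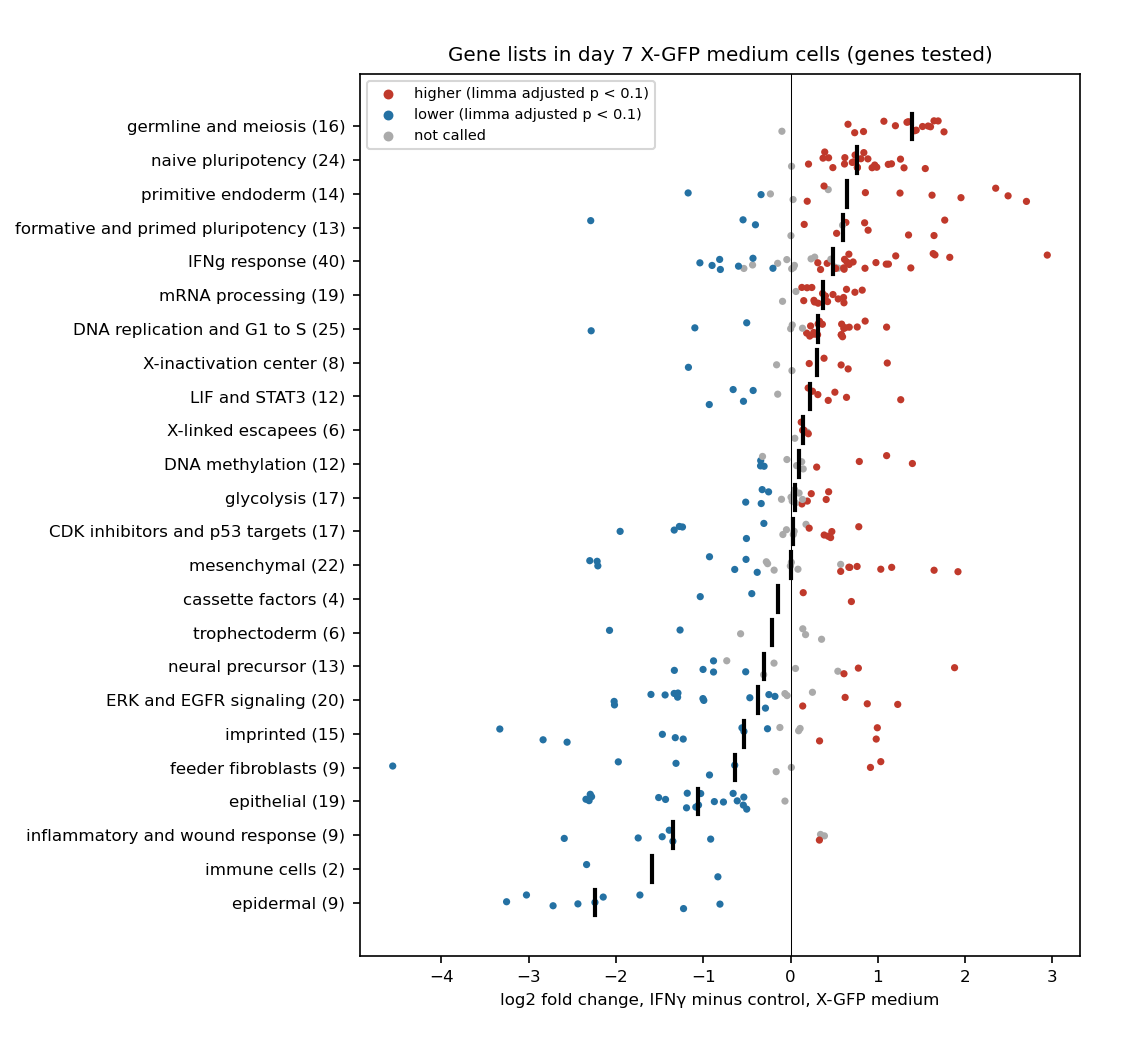
Each point is 1 gene of a list, placed by its log2 fold change of IFNγ against control in X-GFP–medium cells (red, called higher; blue, called lower; grey, not called), and the black bar is the median of the list, with the number of genes tested in brackets. Germline and naive pluripotency genes lie to the right and epidermal and epithelial genes to the left of 0.

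Epithelial genes fell. Of 19 genes, 18 were lower, beside 29.6% of all genes, and 0 were higher. All 10 junction genes of the list were among the lower. The median log2 change was −1.06, beside −0.98 in negative and −1.15 in high cells. Krt8, a keratin of simple epithelia, read 17368 and 16554 normalized counts in the control libraries and 2876 and 4235 in the IFNγ libraries (−2.28 ± 0.14, adjusted p = 1.2e-06). Dsp, the desmosomal linker desmoplakin, read 18147 and 19224 normalized counts in the control libraries and 3116 and 4559 in the IFNγ libraries (−2.31 ± 0.14, adjusted p = 1.1e-06). In both, IFNγ library 1 was the lower of the treated pair and both treated libraries lay well under the controls. Cdh1 and Epcam, surface proteins that epithelia share with pluripotent cells, fell less, with 15190 and 15622 and then 10304 and 10960 normalized counts for Cdh1 (−0.54 ± 0.06, adjusted p = 4.5e-05) and a log2 change of −0.54 ± 0.06 for Epcam. The ESC means were 10219 normalized counts for Cdh1, next to its treated level, and 522 for Krt8, below its treated level. Grhl2, an epithelial transcription factor, was not called (421 and 402 and then 406 and 381 normalized counts).

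All 9 tested genes of the epidermal list were lower, with a median log2 change of −2.24. Krt17, a keratin of stressed and wounded epidermis, read 6543 and 6586 normalized counts in the control libraries and 631 and 1026 in the IFNγ libraries (−3.03 ± 0.17, adjusted p = 8.5e-07). Sprr1a, a precursor of the cornified envelope, read 275 and 237 normalized counts in the control libraries and 24.6 and 27.2 in the IFNγ libraries (−3.25 ± 0.19, adjusted p = 1.1e-06). Krt14, a basal keratin, read 1973 and 2136 normalized counts in the control libraries and 290.0 and 647 in the IFNγ libraries (−2.24 ± 0.27, adjusted p = 8.0e-05). The control libraries were close to each other, and every treated library was lower. In ESCs and NPCs the means were 0 and 0 for Sprr1a and 10.2 and 2.24 normalized counts for Krt14. Krt15 and Trp63 had means of at most 10. The median log2 change of the list was −1.62 in negative and −2.32 in high cells, and 0 of its genes passed either interaction test, although 5 did against negative cells without medium IFNγ library 2.

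Mesenchymal genes did not move in 1 direction. Of 22 tested, 8 were higher, 7 lower and 7 not called, beside 33.3% higher and 29.6% lower of all genes. Zeb1, a repressor of epithelial genes, read 138 and 159 normalized counts in the control libraries and 600.1 and 529 in the IFNγ libraries (1.92 ± 0.13, adjusted p = 1.9e-06). Vim, the intermediate filament vimentin, read 262 and 275 normalized counts in the control libraries and 522 and 690.1 in the IFNγ libraries (1.16 ± 0.13, adjusted p = 6.1e-05). Col6a1, a matrix collagen chain, read 379.5 and 487 normalized counts in the control libraries and 63.8 and 117 in the IFNγ libraries (−2.30 ± 0.25, adjusted p = 3.8e-05). The arms were apart for all 3 genes. The number higher was 5 without IFNγ library 2 and with all 24 libraries in 1 fit, and 4 without control library 2 and with DESeq2. Tagln, an actin-binding protein of smooth muscle, read 146 and 137 normalized counts in the control libraries and 29.1 and 30.3 in the IFNγ libraries (−2.22 ± 0.20, adjusted p = 1.3e-05), with a log2 change of 0.23 in negative cells (difference −2.45 ± 0.32, adjusted p = 0.0021). Of 13 tested neural precursor genes, 3 were higher and 5 lower, the latter 2 without control library 1. Tnc, a matrix glycoprotein, read 39.5 and 23.7 normalized counts in the control libraries and 147 and 91.0 in the IFNγ libraries (1.88 ± 0.30, adjusted p = 0.00053). Nes, an intermediate filament gene of neural precursors, read 2857 and 3136 normalized counts in the control libraries and 1476 and 1785 in the IFNγ libraries (−0.88 ± 0.09, adjusted p = 3.0e-05). Both were far below their NPC means of 1898 and 22584 normalized counts.

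Genes of EGFR and ERK signaling were mainly lower, 13 of 20 tested, and 4 were higher. All 3 tested receptor and ligand genes were lower, and of 17 feedback and target genes 10 were lower and 4 higher. The median log2 change was −1.44 for the former and −0.25 for the latter. For all 20 genes it was −0.38 in medium, −0.58 in negative and −0.40 in high cells. Egfr itself read 934 and 948 normalized counts in the control libraries and 186 and 289 in the IFNγ libraries (−2.02 ± 0.17, adjusted p = 7.6e-06). Fosl2, an AP-1 subunit, read 1637 and 1386 normalized counts in the control libraries and 318 and 431 in the IFNγ libraries (−2.02 ± 0.14, adjusted p = 2.2e-06). The AP-1 genes Fos and Jun fell by 0.99 and 1.29 on the log2 scale. The treated libraries were below the controls for each of these 4 genes. Feedback inhibitors of the pathway were among the 4 higher. Spry2 read 737 and 774 normalized counts in the control libraries and 1749 and 1794 in the IFNγ libraries (1.23 ± 0.07, adjusted p = 1.0e-06), and Dusp6 rose by 0.88 ± 0.06 on the log2 scale. Among 9 tested inflammatory and wound genes, 6 were lower and 1 higher, the latter 0 without control library 2, without the filter, with DESeq2 and with all 24 libraries in 1 fit. Il1a, a cytokine released by keratinocytes, read 26.7 and 22.7 normalized counts in the controls and at most 3 reads in each treated library, at least 7.35-fold lower against the same floor of 3 reads. Plaur, the receptor of urokinase, read 1343 and 1359 normalized counts in the control libraries and 443 and 534 in the IFNγ libraries (−1.47 ± 0.10, adjusted p = 2.0e-06).

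Replication and G1-to-S genes were higher in 19 of 25 cases and lower in 3. The median log2 change was 0.32 in medium, 0.41 in negative and 0.25 in high cells. Ccne1, the cyclin that starts S phase, read 967 and 1044 normalized counts in the control libraries and 1948 and 2384 in the IFNγ libraries (1.10 ± 0.10, adjusted p = 9.5e-06). Mcm3, a subunit of the replicative helicase, read 5998 and 6475 normalized counts in the control libraries and 10241 and 10940 in the IFNγ libraries (0.76 ± 0.06, adjusted p = 7.0e-06). Both treated libraries were above both controls. Of the D-type cyclins, Ccnd2 read 632 and 770.3 normalized counts in the control libraries and 112 and 181 in the IFNγ libraries (−2.28 ± 0.20, adjusted p = 9.4e-06), Ccnd1 fell by 1.10 and Ccnd3 rose by 0.32 on the log2 scale. For Ccnd2 the difference from negative cells was −2.18 ± 0.28, adjusted p = 0.0018. Of the 5 CDK inhibitors of the list, 4 were lower. Cdkn1a, which encodes p21, read 5737 and 5394 normalized counts in the control libraries and 2236 and 2179 in the IFNγ libraries (−1.33 ± 0.06, adjusted p = 4.1e-07), and Cdkn2a and Cdkn2b, whose products block entry into S phase, fell by 1.27 and 1.24 on the log2 scale. Cdkn1c, which is also imprinted, rose by 0.78 ± 0.24 on the log2 scale in medium cells against −0.54 in negative cells (difference 1.32 ± 0.43, adjusted p = 0.086). Among p53 targets 5 of 12 were higher and 2 lower. Perp, a p53 target that is also a desmosomal protein, fell from 8940.2 and 8645 to 2049 and 2515 normalized counts (−1.95 ± 0.09, adjusted p = 3.8e-07), while Bax, a mediator of apoptosis, rose by 0.39 ± 0.06 on the log2 scale. Beside 7.31% and 8.36% of all genes tested, the change was more positive in medium than in negative cells for 10 of these 17 genes and more negative for 0. That count fell to 2 with all 24 libraries in 1 fit, 5 without the filter, 3 with values rescaled to the same total, 4 without medium IFNγ library 1, and 3 without either medium control library, negative IFNγ library 2 or negative control library 1.

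For mRNA processing, 17 of 19 genes were higher and 0 lower, with a median log2 change of 0.37. The median was 0.37 in negative and 0.27 in high cells. Srsf1, a splicing factor of the SR family, read 8158 and 9162 normalized counts in the control libraries and 14583 and 15997 in the IFNγ libraries (0.82 ± 0.07, adjusted p = 1.1e-05), and Srsf2 rose by 0.74 ± 0.06 on the log2 scale. The treated levels of Srsf1 lay between the controls and the ESC mean of 27459. Of 17 glycolysis genes, 5 were higher and 4 lower, beside 33.3% and 29.6% of all genes. Pfkm rose by 0.44 ± 0.08 and Slc2a3, a glucose transporter of pluripotent cells, by 0.41 ± 0.07, while the lactate transporter gene Slc16a3 fell by 0.51 on the log2 scale. The number higher was 2 without control library 1 and with all 24 libraries in 1 fit, which also left 1 lower.

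Imprinted genes, expressed from 1 parental copy, were lower in 9 of 15 tested and higher in 3. Igf2, the fetal growth factor, read 6783 and 6734 normalized counts in the control libraries and 503 and 894 in the IFNγ libraries (−3.33 ± 0.20, adjusted p = 1.1e-06). Dlk1, a NOTCH-related surface protein, read 219 and 198 normalized counts in the control libraries and 20.2 and 39.7 in the IFNγ libraries (−2.84 ± 0.29, adjusted p = 2.5e-05). Rtl1, which is transcribed from the same paternal domain on chromosome 12, read 712 and 824 normalized counts in the control libraries and 92.9 and 179 in the IFNγ libraries (−2.56 ± 0.24, adjusted p = 1.6e-05). For all 3 genes IFNγ library 1 was the lowest of the 4 and the control libraries were alike. Meg3, the maternal noncoding RNA of that domain, fell from 6398 and 5828 to 2922 and 2318 normalized counts (−1.23 ± 0.10, adjusted p = 5.6e-06). Peg10 and Igf2r rose by 0.99 ± 0.07 and 0.98 ± 0.08 on the log2 scale. Medium and negative cells differed at 11 genes of the list: in 9 the change was lower in medium cells and in 2 higher, and the first number was 7 to 10 in every alternative. Of all genes tested, 8.36% had a lower and 7.31% a higher change in medium than in negative cells. Dlk1 changed by −0.46 and Igf2 by −1.99 in negative cells on the log2 scale, differences of −2.38 ± 0.38, adjusted p = 0.0052 and −1.35 ± 0.27, adjusted p = 0.015. Parental copies of autosomal genes were not analysed here.

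The X-inactivation center encodes Xist, which coats and silences the X, and its antisense partner Tsix. Xist read 3569 and 3634 normalized counts in the control libraries and 1557 and 1643 in the IFNγ libraries (−1.17 ± 0.06, adjusted p = 8.1e-07), and the treated libraries held less than either control. Tsix, transcribed from the opposite strand in these stranded libraries, read 146 and 161 normalized counts in the control libraries and 352 and 314 in the IFNγ libraries (1.11 ± 0.13, adjusted p = 7.2e-05), and this count does not separate the truncated copy on X mus from the intact one on X cas. Rlim, an activator of Xist, rose by 0.21 ± 0.06 (adjusted p = 0.012) on the log2 scale. Of the 8 tested genes of the center, 5 were higher and 1 lower, and without control library 1 the number higher was 2. The Xist fall exceeded that in negative cells, −0.38 on the log2 scale, with a difference of −0.79 ± 0.08, adjusted p = 0.00055. Its difference from that in high cells, −0.41 ± 0.15, did not pass the interaction test (adjusted p = 0.13). In NPCs and ESCs the Xist means were 10412 and 792 normalized counts.

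Over the X chromosome, 255 of 575 genes (44.3%) were higher and 117 (20.3%) lower, with a median log2 change of 0.19, whereas on the autosomes 32.9% were higher and 30.2% lower with a median of 0.04. The median log2 change of X-linked genes was 0.05 in negative and 0.13 in high cells. Genes that escape X inactivation are active on both X chromosomes in somatic cells. Of 6 escapees 4 were higher, each by at most 0.20 on the log2 scale, and this number was 0 with DESeq2 and without control library 1, 1 without control library 2 and 2 with edgeR.

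The fraction of allelic reads that came from X mus was deposited as 1 value per gene and population, without replicates and with unknown depth. These values are described for 316 X-linked genes with no test. The median X mus fraction was 0.110 in the control (quartiles 0.0489 and 0.197) and 0.236 in the IFNγ X-GFP–medium cells (quartiles 0.124 and 0.326). It was higher with IFNγ at 294 genes, lower at 16 and equal at 6, with a median rise of 0.0891. For reference it was 0.481 in ESCs, 0.00107 in NPCs, 0.00896 and 0.0188 in control and IFNγ negative cells, and 0.336 and 0.396 in control and IFNγ high cells. IFNγ-treated medium cells were below control high cells at 284 genes and above them at 28. Genes with a fraction under 0.05 numbered 80 in the control and 29 with IFNγ, and those at 0.4 or more numbered 9 and 30. Hprt, the gene that holds the GFP reporter, had fractions of 0.198 in the control and 0.365 with IFNγ.

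The medians rose in every window along the chromosome. In windows by distance from Xist the control medians ran from 0.0609 to 0.192 and the IFNγ medians from 0.161 to 0.301, and the median rise from 0.0481 within 20 Mb on the distal side of Xist to 0.104 at 40 to 70 Mb on that side. The largest single rises among genes with a mean of at least 100 normalized counts were those of Zbtb33 (0 to 0.479), Hnrnph2 (0.0714 to 0.460), Map7d2 (0.0359 to 0.348), Zdhhc9 (0.233 to 0.530) and Gemin8 (0.0863 to 0.374). The 5 largest falls among the same genes ran from −0.0246 for Fhl1 to −0.0385 for Rps4x. Below that mean, Apln fell from 0.362 to 0.102, the largest fall of the 316 genes. The 27 genes already above 0.1 in NPCs had medians of 0.323 and 0.386, and the other 289 had 0.101 and 0.218. Of the 159 genes whose total level was called higher, 151 had a higher X mus fraction, and so did 59 of the 67 called lower and 84 of the 90 not called.

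**Figure D4:**
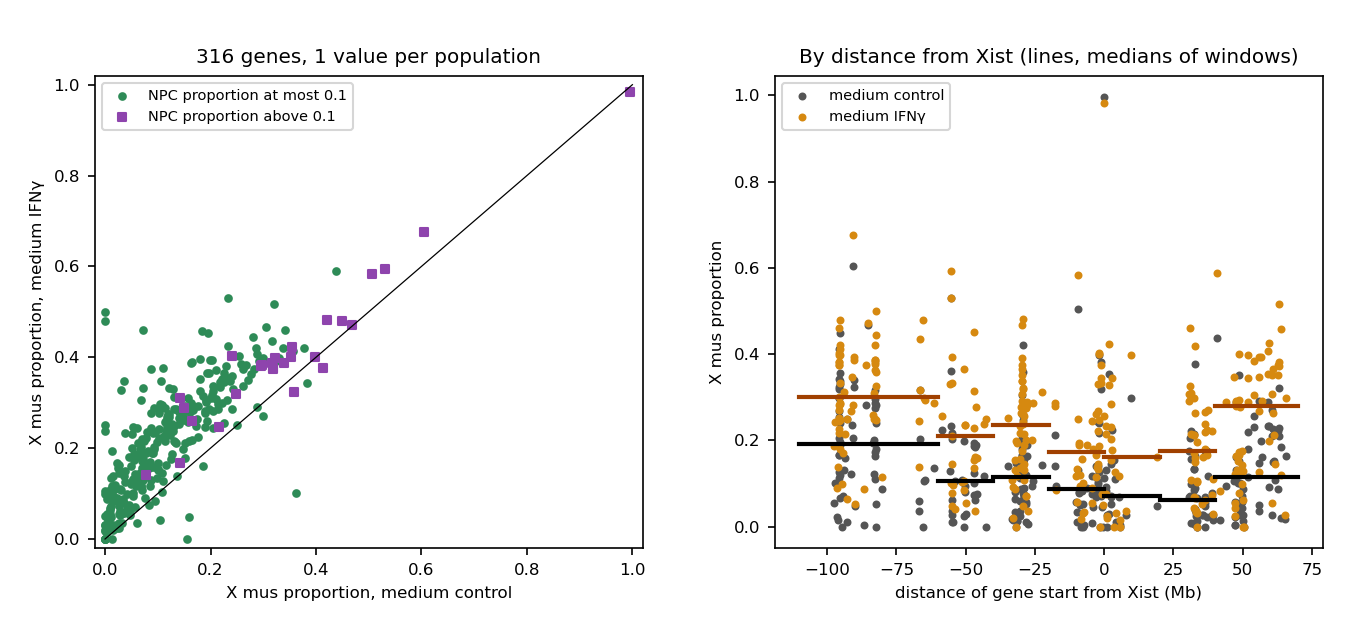
On the left each point is 1 of 316 X-linked genes, with the X mus fraction of control X-GFP–medium cells on the x axis, that of IFNγ X-GFP–medium cells on the y axis and squares for genes above 0.1 in NPCs; 294 points lie above the diagonal. On the right the same fractions are plotted against the distance of each gene from Xist in Mb, with bars for the medians of windows.

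Chromosome 8 stood apart from the other autosomes; it was singled out after its values were seen. Of its 823 genes 16.3% were higher and 48.2% lower with a median log2 change of −0.22, whereas the other 18 autosomes had 29.0% to 38.9% higher, 25.1% to 35.8% lower and medians of −0.02 to 0.13. The low median extended over the chromosome, at −0.30 to −0.14 in 7 windows of 20 Mb. The median log2 level of chromosome 8 genes relative to ESCs was taken in each library, less the same median over the other autosomes. This value was −0.090 and −0.105 in the control medium libraries and −0.382 and −0.308 in the IFNγ medium libraries. In the treated libraries it lay below the lowest other autosome, taken the same way, at −0.199 and −0.131, and in the controls it did not. The treated libraries were also below the controls in negative cells (−0.084 and −0.089, then −0.281 and −0.267) and in high cells (−0.063 and −0.031, then −0.337 and −0.257). Day 5 libraries of both arms were low as well, at −0.268 and −0.318 in the control and −0.438 and −0.504 with IFNγ, and day 2 and NPC libraries were at −0.062 to −0.004. DNA was not measured. The naive genes Zfp42 and Klf2, which lie on this chromosome, rose. The number of its genes called higher, 134, was 85 without control library 1 and 82 with DESeq2.

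**Figure D5:**
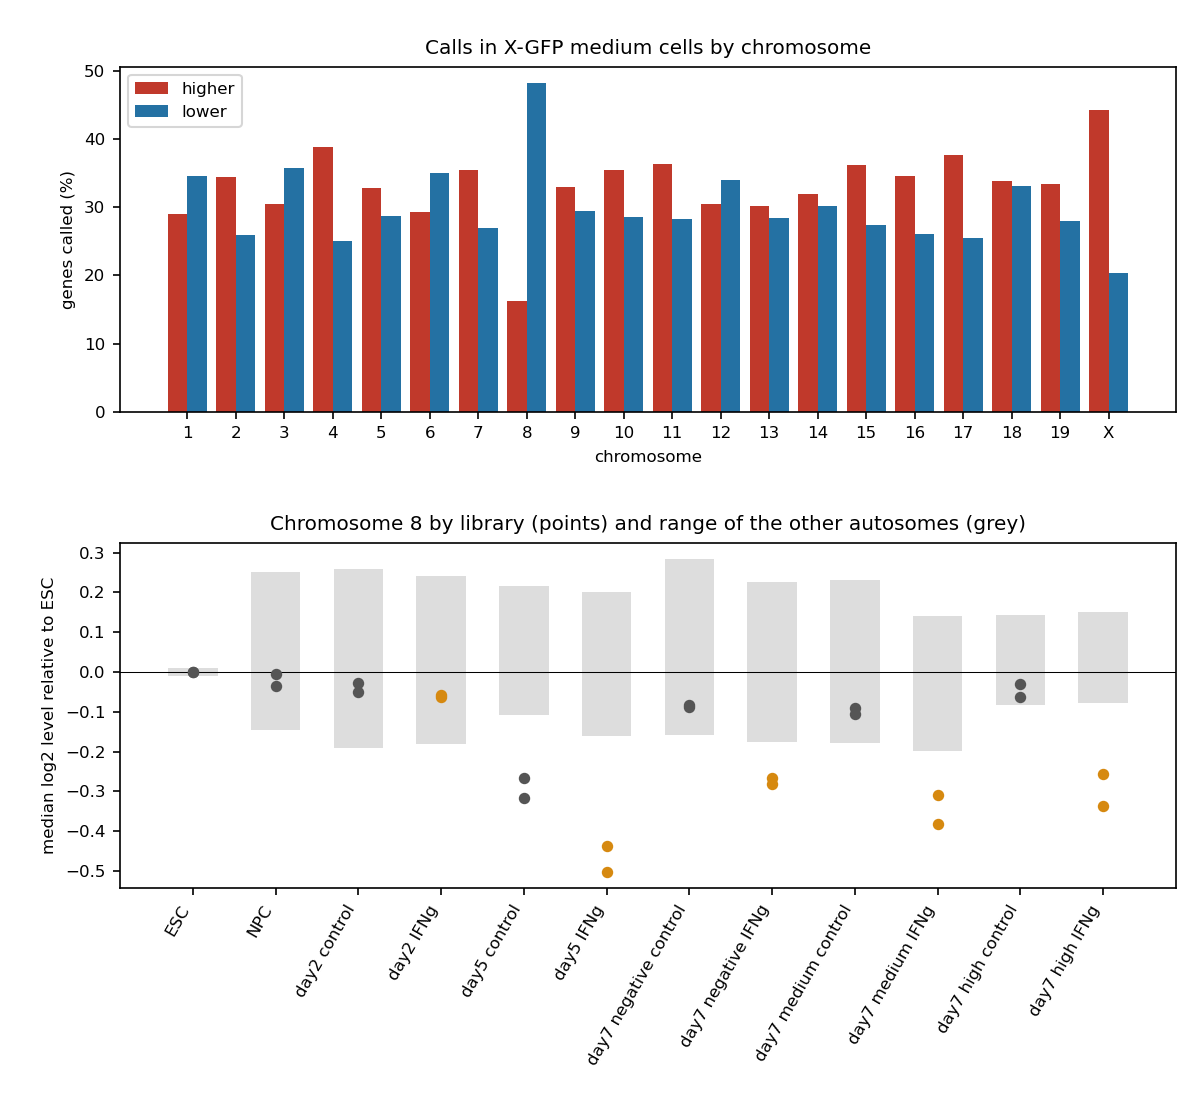
The upper panel gives the percent of tested genes per chromosome that were called higher (red) or lower (blue) in X-GFP–medium cells, with 48.2% lower on chromosome 8 and 44.3% higher on the X. Points in the lower panel give the chromosome 8 median log2 level of a library relative to ESCs (orange, IFNγ). The same median over the other autosomes of that library was subtracted. Grey shows the range of the other autosomes, taken the same way.

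The mitochondrial genome gave 13 tested genes, of which 8 were higher and 0 lower with a median log2 change of 0.63. All 7 protein-coding genes among them were higher. mt-Nd1, a subunit gene of complex I, read 26855 and 25953 normalized counts in the control and 57951 and 49788 in the IFNγ libraries, whereas the ribosomal RNAs mt-Rnr1 and mt-Rnr2 had log2 changes of 0.02 and 0.00. In negative cells the median of these genes was −0.05 and in high cells 0.45; the difference between populations was not tested for the group.

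The medium comparison was set beside comparisons that share no library with it. Of 1625 genes higher in control high than in control negative cells by at least 1 on the log2 scale, 1270 (78.2%) were higher with IFNγ in medium cells and 9 (0.554%) lower, with a median log2 change of 0.82. Of 1947 genes lower in control high cells, 131 (6.73%) were higher and 1420 (72.9%) lower, with a median of −0.98. Of 3729 genes higher in ESCs than NPCs, 47.1% were higher and 20.8% lower with IFNγ, and of 3540 lower in ESCs, 23.95% were higher and 41.4% lower. Nr0b1, Dazl and Klf2 are examples of genes that were higher in control high than in control negative cells, with means of 1379 and 135, 1108 and 19.5, and 4004 and 696 normalized counts, and Krt17 is an example of the opposite, with 3159.6 and 13052.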

How the data were processed

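Data for 24 RNA-seq libraries, 2 for each of 12 populations, were taken with groups from the labels, and 4 of them make up the medium comparison. The signal values deposited by the authors were normalized counts per gene. The authors had aligned read pairs with STAR to mm10 with variant positions of both strains masked, counted them per gene with HTSeq 0.6.1 and divided them by 1 size factor of DESeq2 per library; STAR, HTSeq and DESeq2 are also named in the submitters' processing notes. Dividing by the smallest step of each library turned 100% of the values into whole reads, within 0.01, and these served for count tests. The deposited fractions were the proportions of allelic reads from X mus, 1 column per population, and whether replicates were pooled is not given in the sources used here.

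Gene symbols and positions are those of GENCODE vM21 (GRCm38), in which 95.2% of the gene identifiers were found. Genes with a mean above 10 in the 4 libraries entered limma 3.58.1 (R 4.3.3), run with an intensity trend on log2(normalized count + 1), two-sided, with Benjamini-Hochberg adjustment and a threshold of 0.1. The values are normalized counts and not raw counts, so that limma was the main test, while the study used DESeq2. Differences between day 7 populations were tested as interaction terms in the 8 libraries of both populations, taken as independent. The fractions were sorted from common SSEA1-positive cells, so libraries of different fractions may share a culture, which the labels do not give. As alternatives, the whole reads were tested with edgeR 4.0.16 and with DESeq2 1.42.0, each library was left out in turn, and limma was run with the replicate number as a block, with the 24 libraries fitted jointly, with equal library totals, without the minimum mean and with a pseudocount of 0.1. A group with at most 3 reads in each library was set to that floor and its fold given as a bound, which covers counting error only. The procedure was tested on simulated data in which few genes changed, 197 of 15384 in the medium comparison. There the share of false calls exceeded the threshold with limma and edgeR in both kinds of test, and with DESeq2 in the interaction test. Calls at an adjusted p near the threshold were therefore taken as less certain than it states. In the data 62.9% of genes were called, so the simulated share itself need not hold for them. Counts, lists and plots were made in Python 3.11.15 with pandas 2.3.3, numpy 2.4.6 and matplotlib 3.10.9.

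The genes and gene lists were chosen with earlier results of these data known. Genes were named by a rule: the 10 largest changes each way among called genes with a mean of at least 100 in the higher group and libraries that do not overlap, predicted genes and pseudogenes left out; the 3 largest changes of each list; any gene of the naive, IFNγ, LIF, DNA methylation and X-inactivation center lists; the 4 largest interaction terms each way; and the 5 largest rises and falls of the X mus fraction. Further list genes given as examples, among them Dazl, Hormad1, Tex19.1, Cdh1, Krt14, Fos, Jun, Mcm3 and Meg3, and the mitochondrial genes were chosen with their values known. Fibroblast and immune marker lists and the lists of other cell types are given in the report with their counts. Values of 3 genes are not reported here. Promoter sequences are those of RefSeq on GRCm38.p6.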

Additional observations from a re-analysis of the deposited data

Results flagged for a closer look

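The effect of IFNγ in X-GFP–medium cells differed from that in negative cells by the interaction test of limma, with 1142 genes of more positive and 1307 of more negative change in medium cells. Between medium and high cells it differed for 1259 and 736 genes. The genes that follow had the largest differences in these tests among genes with a group mean of at least 100.

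The most negative terms against negative cells among the genes tested in medium cells were those of the X-linked genes Fndc3c1 and Dgkk. Fndc3c1 fell in medium cells and rose in negative cells. It read 220.4 and 226 normalized counts in the control libraries and 44.8 and 56.5 in the IFNγ libraries, whereas its mean in negative cells was 228.5 in the control and 424.7 with IFNγ, an interaction of −3.02 ± 0.27, adjusted p = 0.0005 on the log2 scale. Dgkk, a diacylglycerol kinase gene, rose in negative cells and was not called in medium cells. It read 9.88 and 10.3 normalized counts in the control libraries and 8.96 and 15.7 in the IFNγ libraries, with means of 12.9 and 114.9 in negative cells and an interaction of −3.01 ± 0.63, adjusted p = 0.017. The opposite sign was found for Ace, which encodes the angiotensin-converting enzyme (1.72 ± 0.16, adjusted p = 0.0005), AI481877 (1.67 ± 0.45, adjusted p = 0.045), Rhov (1.54 ± 0.25, adjusted p = 0.0058) and the myosin gene Myh14 (1.49 ± 0.17, adjusted p = 0.0012). Ace, Rhov and Myh14 fell in negative cells by 1.63 or more on the log2 scale. In medium cells Rhov fell by 0.74 and Ace by 0.35, and Myh14 was not called (log2 change −0.14). The Ace call in medium cells was lost in 4 alternatives.

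Against high cells the change was more positive in medium cells for Klb (1.81 ± 0.28, adjusted p = 0.0068), Zscan5b (1.80 ± 0.29, adjusted p = 0.008) and Mndal (1.65 ± 0.31, adjusted p = 0.014). The control means of Klb and Zscan5b were 97.0 and 118.8 normalized counts in high cells and 26.8 and 19.2 in medium cells. Mndal fell in both populations, from a mean of 306.9 to 117.9 normalized counts in medium cells and from 146.2 to 17.3 in high cells. The change was more negative in medium cells for Thy1 (−2.13 ± 0.29, adjusted p = 0.0047), Grip2 (−2.04 ± 0.39, adjusted p = 0.015), Pak3 (−1.85 ± 0.36, adjusted p = 0.015) and Zbtb16 (−1.78 ± 0.54, adjusted p = 0.074). Thy1, a surface protein of fibroblasts and neurons, fell from 117 and 123 to 48.1 and 47.1 normalized counts in medium cells and had means of 117.2 and 210.5 in high cells. The Zbtb16 fall in medium cells, −3.44 on the log2 scale, was −2.73 without IFNγ library 1 and −4.16 without IFNγ library 2.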

How the results depend on the processing

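The counts of genes higher and lower in medium cells stayed within 1.5 times of 5193 and 4621 under all alternatives, at 3574 to 5513 and 3627 to 4867. DESeq2 on the whole reads gave 3574 higher and 4181 lower, and edgeR 4896 and 4867. The share of calls that were higher was 52.9%, and 46.1% to 53.2% under the alternatives. Of 193 named genes that were called, 162 kept their call and direction in all 11 alternatives, 31 lost the call in at least 1 and 0 were reversed.

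The interaction counts depended on the setting. Against negative cells the 1142 more positive changes were 671 with DESeq2, 629 with all 24 libraries in 1 fit, 681 without the filter, 400 with rescaled values and 2071 with the replicate block. The 1307 more negative ones were 854 with DESeq2, 867 without the filter, 2863 with rescaled values and 2119 with the block. Rescaling moved the median interaction of all genes from 0.00 to −0.16 on the log2 scale and the share of positive calls from 46.6% to 12.3%, so that directions against negative cells are relative to that shift. Against high cells the 1259 more positive were 780 with DESeq2, 560 with all libraries, 588 without the filter and 1912 with the block, and the 736 more negative were 309 without the filter and 1166 with the block. The positive share was 63.1%, 52.5% with edgeR (991 and 898), 52.6% with all libraries and 55.8% with DESeq2.

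With 1 library left out, the interaction counts ranged from 399 to 1421 and from 591 to 1842 against negative cells and from 329 to 1530 and from 155 to 1067 against high cells. Against negative cells they were 678 and 926 without medium IFNγ library 1, 433 and 616 without medium control library 1, 399 and 591 without medium control library 2, 599 and 757 without negative IFNγ library 2, and 591 and 804 without negative control library 1. Against high cells they were 691 and 408 without high control library 1, 329 and 155 without high control library 2, 723 and 387 without medium IFNγ library 1, 341 and 156 without medium control library 1, and 511 and 216 without medium control library 2. The cause was not tested.

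Chromosome 8 genes called higher, 134, numbered 82 with DESeq2 and 85 to 148 with 1 library left out. Of the genes lower in ESCs than NPCs, 848 were higher, and 532 with DESeq2. Of those higher in control high than negative cells, 9 were lower, and 17 without the filter, 14 with rescaled values and 5 to 22 with 1 library left out. Of those lower in control high cells, 131 were higher, and 79 with DESeq2. The median X mus fractions of 0.110 and 0.236 were 0.137 and 0.233 as means, 0.119 and 0.247 for genes with a mean of at least 100, and 0.101 and 0.218 without genes above 0.1 in NPCs. The direction, not called in the first place, turned for Lin28a, at −0.0257 with DESeq2, −0.0152 with edgeR and −0.000929 to 0.0238 with 1 library left out, and for Psmb10, at −0.388 to 0.0916 with 1 library left out.

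The labels give no link between equal replicate numbers. The deviations of equally numbered control and IFNγ medium libraries correlated at 0.0956 across genes, and those of equally numbered IFNγ libraries of the day 7 populations at 0.164 to 0.245. With the replicate number as a block, 5513 genes were higher and 4854 lower in medium cells, and the call of all 193 named genes called without it was the same. The X mus fractions have 1 value per population and unknown depth, so that no error can be given for them.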
